A study of Mus musculus with 6 samples.

Results

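The genes described here are 46 mouse genes that interferons are known to induce, the interferon-stimulated genes. They were taken from a list of symbols and matched to the gene identifiers of the count tables, and all 46 were found among the 46983 genes listed. The list covers 9 roles, from the secreted protein ISG15 to the immunoproteasome, and leaves out the Ifi200 cluster of chromosome 1. Of the 46, 39 had enough reads to be tested between the genotypes, and the other 7 are given as reads.

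Messenger RNA was sequenced from myeloid colonies that lineage-depleted bone marrow cells of C57BL/6 mice formed in methylcellulose under stem cell factor, IL-3 and IL-6. The mice were 8 to 11 weeks old, and colonies were taken on day 6 to 7. The 3 WT libraries are labelled wild type, while the series design gives their mice the genotype PsipFl/Fl, so that the controls carry a floxed Psip1 allele. The 3 libraries here called KO are labelled Psip1-KO and come from PsipVav/Vav mice. Vav is a gene whose promoter is active throughout blood formation and is widely used to drive Cre there, and the sources used here do not give how the deletion was made. Psip1 encodes LEDGF, a chromatin reader that ties the MLL complex to active genes, and the series title asks whether normal blood formation needs it. No interferon, virus or other inducer is named in the labels of either group, so the values below are those of colonies grown in cytokines alone.

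Cells sense foreign nucleic acid with receptors such as RIG-I and MDA5, and answer by making interferon. Interferon binds its receptor, the kinases JAK1 and TYK2 phosphorylate STAT2, and STAT2 joins IRF9 in a complex that binds the interferon-stimulated response element in the promoters of its target genes. The products block viral entry, translation, RNA synthesis and budding, and load peptides onto MHC class I. Blood cells hold a low tonic level of these genes without infection, and strong interferon signals drive blood stem cells into division.

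The binding element is shown here because many of the members share it in their promoters. Promoter windows of RefSeq (GRCm38.p6, 250 bases before to 50 after each transcript start) were found for 35 of the 46 genes. They were searched on both strands, with overlapping matches counted, for the core of the response element, spelled TTTC, 2 bases of any kind and TTTC again. At least 1 match was held by 19 of the 35 genes (54.3%), against 3.99% of the 27025 genes in the table. The second core, TTCNNNGAA, which reads the same on both strands and is the core of the gamma-activated site, was held by 10 of 35 (28.6%), against 9.55%. A stretch can hold both cores, and they were counted separately. The stretches below are written 5′ to 3′ on the strand of the gene, with the matches to that core, or to its complement (GAAA, any 2 bases, GAAA), in capitals. They belong to Isg15 (chr4:156200852-156200911, minus strand), Ifit1 (chr19:34640770-34640829, plus), Rsad2 (chr12:26456528-26456587, minus), Gbp2 (chr3:142620589-142620648, plus), Gbp7 (chr3:142530268-142530327, plus), Trim30a (chr7:104465185-104465244, minus), Ifit3 (chr19:34583358-34583417, plus) and Ifit3b (chr19:34607754-34607813, plus).
Isg15: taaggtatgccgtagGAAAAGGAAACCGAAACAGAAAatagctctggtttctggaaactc
Ifit1: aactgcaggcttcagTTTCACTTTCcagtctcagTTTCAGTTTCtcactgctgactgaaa
Rsad2: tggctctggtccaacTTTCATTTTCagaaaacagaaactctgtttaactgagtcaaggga
Gbp2: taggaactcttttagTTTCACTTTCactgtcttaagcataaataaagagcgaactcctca
Gbp7: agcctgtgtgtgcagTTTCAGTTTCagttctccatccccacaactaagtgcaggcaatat
Trim30a: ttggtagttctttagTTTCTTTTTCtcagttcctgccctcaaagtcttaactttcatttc
Ifit3: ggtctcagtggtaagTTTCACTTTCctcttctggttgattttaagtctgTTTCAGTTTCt
Ifit3b: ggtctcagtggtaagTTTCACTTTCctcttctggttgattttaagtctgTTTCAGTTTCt

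Isg15 holds 3 overlapping matches between 66 and 78 bases before its start, and Ifit1 holds 2, at 85 and 104 bases. In Gbp2, Gbp7 and Trim30a the single match lies 59, 53 and 36 bases before the start. These starts are those of RefSeq. The gene span given below for Gbp2 begins farther upstream, at 142620602, so that its match lies inside that span. The stretches of Ifit3 and Ifit3b are the same at all 60 positions, and the transcripts are near copies too. Of the words of 50 bases in Ifit3 transcripts 51.2% also occur in Ifit3b, and of those in Ifit3b 44.5% occur in Ifit3. Reads from those stretches map to more than 1 place and are counted for neither gene, so both counts are uncertain. The same holds for Oas1a, which shares 57.6% of its words with Oas1g. No other member shared more than 14.4% of its words with another gene. A match of letters describes a promoter and is not a measured binding site.

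Depth was uneven. The 5 deep libraries held 7056614 to 15569088 reads on genes, and WT replicate 3 held 27909, where 1 read is worth 29.9 normalised CPM (reads scaled to the effective library size). In that library the 46 genes held 34 reads in all. Reads were found for 17 of them, and the most for 1 gene was 4. Its values are therefore not written as CPM below, and levels given for "WT" are those of replicates 1 and 2 in that order, followed by KO replicates 1, 2 and 3. A floor of 3 reads in the deep libraries lies between 0.198 and 0.475 CPM, and covers the error of counting alone. Whether libraries of a group come from separate mice is not stated in the labels. Reads of Xist and Eif2s3y, given below, show animals of different sex for WT replicates 1 and 2. They do so for KO replicate 1 against KO replicates 2 and 3 as well. For the other libraries of a group it stays unknown, so p-values measure the spread between libraries, which may be technical in part. Psip1 checked the labels, at 89.3 and 70.0 CPM in WT and 14.8, 17.6 and 16.3 CPM in KO (by edgeR -2.32 on the log2 scale, SE 0.32, with an adjusted p = 0.060), with 3 reads in WT replicate 3. The colonies were myeloid, with Lyz2 at 3233 to 10826 CPM while 4 of 14 lymphocyte markers (Cd3e, Cd3g, Cd8a and Ms4a1) had 0 reads in every library. Others of that list were read, led in the deep libraries by Nkg7 at 10.9 to 144.9 CPM and Ighm at 19.9 to 72.8 CPM.

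Most interferon-stimulated genes were transcribed at a modest level in these colonies, with Ifitm3 far above the rest and some antiviral genes, such as Mx1 and Ifi44, at a few reads. Levels between genes are compared as CPM per kilobase of exon, as the median of the 5 deep libraries. Ifitm3, which blocks fusion of virus with the endosome, led at 208.1 CPM per kb and ran from 120.1 to 337.4. Bst2 (39.9), the tetherin that holds budding virions, Samd9l (37.2), a translation repressor, Psmb8 (21.9), an immunoproteasome subunit, and Ifi35 (17.1), a leucine zipper protein, came next. The spreads of these 4 genes overlapped with those of their neighbours in this order, and that of Ifitm3 did not.

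**Figure D1:**
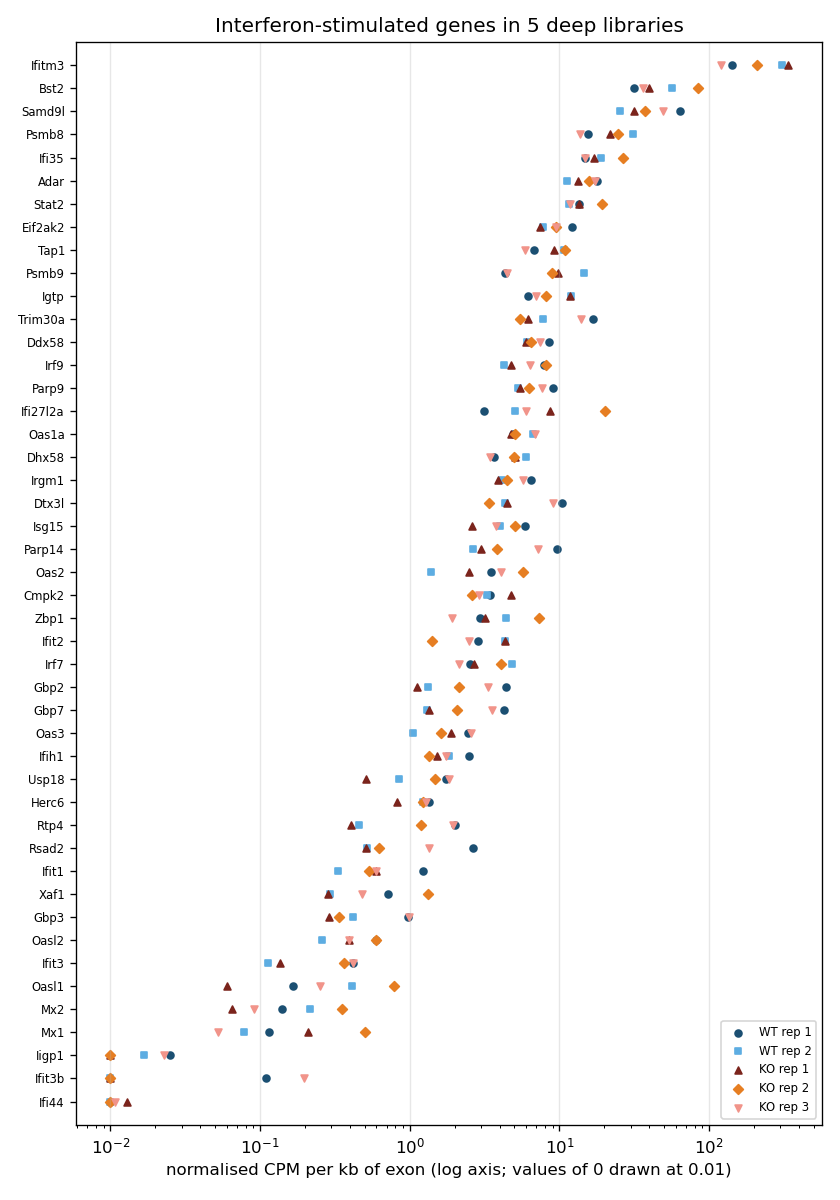
Normalised CPM per kilobase of exon (log axis) for the 46 interferon-stimulated genes in 5 deep libraries, ordered by the median, with 1 symbol per library and values of 0 drawn at 0.01. Ifitm3 stands at the top with a median of 208.1, and Mx1, Iigp1, Ifi44 and Ifit3b lie at 0.115 or below.

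Isg15, the ubiquitin-like protein, stood in the middle of the order at a median of 4.01 CPM per kb, and Irf7 lay lower, at 2.69. Toward the low end, Rsad2, the antiviral enzyme viperin, had 0.620, Ifit1 0.592 and Mx1 0.115. The 7 genes that were too scarce to test were Ifit3, Ifit3b, Oasl1, Mx1, Mx2, Ifi44 and Iigp1, and none held more than 13 reads in any library. Mx1, a GTPase that blocks viral replication, had 6 and 3 reads in WT and 10, 12 and 3 in KO, and its relative Mx2 had 7 and 8 against 3, 8 and 5. C57BL/6 mice are known to carry a defective Mx1 allele. Ifit3 had 10 and 2 reads in WT against 3, 4 and 11, Ifit3b 3 and 0 against 0, 0 and 6, and Oasl1 6 and 11 against 2, 13 and 10. Ifi44 held 1 read in each of KO replicates 1 and 3 and none elsewhere, and Iigp1 at most 2. For each of these genes the reads of the genotypes overlapped or lay at the counting floor.

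No interferon-stimulated gene passed the threshold between KO and WT colonies. Of 39 tested, 0 stayed under 0.05 after Benjamini-Hochberg adjustment of p from edgeR's quasi-likelihood fit, where the share over all 12292 genes was 0%. Each of the 39 had an adjusted p = 1. At an unadjusted p under 0.05 there was 1 of 39 (2.56%), against 1.45% of all genes. In 38 of 39 the log2 fold change was under 1 in size, with standard errors from 0.32 to 0.73. The median log2 fold change was -0.11, with 14 positive and 25 negative values, beside a median of 0.01 and 6393 positive of 12292 over all genes. That median rests on WT replicate 1. Without this library it was 0.21, where the median of all genes was 0.13. DESeq2 and limma-voom on the 6 libraries had 0 members past the adjusted threshold and 0 at the unadjusted level.

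**Figure D2:**
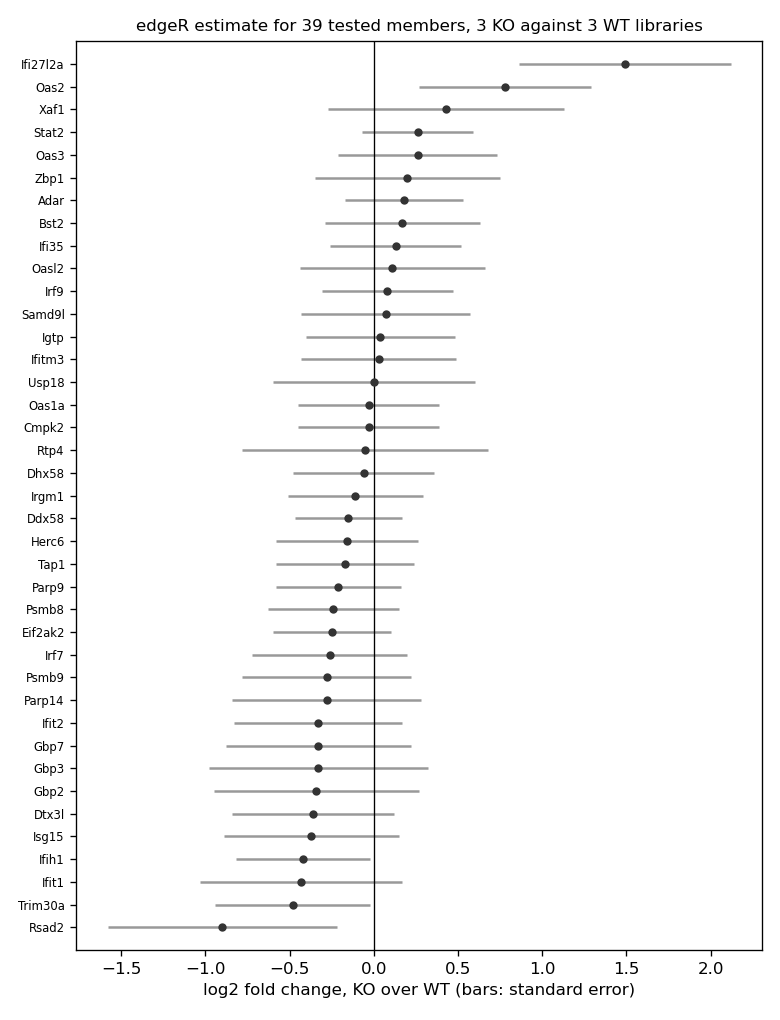
Log2 fold change of KO over WT (x axis) for the 39 tested interferon-stimulated genes, with standard errors as bars, from edgeR on 3 KO and 3 WT libraries. Ifi27l2a lies at 1.49 and Rsad2 at -0.90, and the other 37 lie between -0.48 and 0.78.

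The deep libraries were also compared by their order alone. All 3 KO libraries lay above both WT libraries for 1 of 39 members, Ifi27l2a (2.56%), where 4.79% of all genes did. All 3 lay below both for 1 of 39, Ifih1 (2.56%), where 3.87% of all genes did. Both shares are under the background. Ifi27l2a, a small protein of mitochondrial and nuclear membranes, stood at 1.45 and 2.35 CPM in WT and at 4.01, 9.33 and 2.77 CPM in KO, or 20 and 24 reads against 51, 59 and 42. KO replicate 2 was the high library. By edgeR its log2 fold change was 1.49 (SE 0.63), with an unadjusted p = 0.0365, and without KO replicate 2 it was 0.85. Ifih1, which encodes the RNA sensor MDA5, stood at 20.2 and 14.9 CPM in WT and 12.3, 11.1 and 14.3 CPM in KO, where the nearest libraries of the 2 groups were 14.9 and 14.3 (log2 fold change -0.42, SE 0.40, and -0.10 without WT replicate 1).

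The ISG15 system conjugates a ubiquitin-like tag to other proteins, with Herc6 as its ligase in the mouse and Usp18 as the protease that removes it and that also blocks the interferon receptor. Isg15 (chromosome 4, 156199424 to 156200818, minus strand) had 61 and 31 reads in WT and 25, 24 and 43 in KO, which is 4.43 and 3.04 CPM against 1.97, 3.80 and 2.84 CPM. The groups overlapped, with KO replicate 1 lowest. The log2 fold change was -0.37 (SE 0.52), and it was -0.01 without WT replicate 1, -0.15 without KO replicate 1, -0.58 without WT replicate 2 and -0.61 without KO replicate 2. Usp18 stood at 4.86 and 2.35 CPM in WT and 1.42, 4.11 and 5.15 CPM in KO and spread 3.63-fold within KO and 2.07-fold within WT. Its mean in KO, 3.56 ± 1.93 (SD, n = 3), lay inside the WT range. Its log2 fold change of -0.00 (SE 0.60) became 0.68 without WT replicate 1, 0.39 without KO replicate 1, -0.38 without WT replicate 2 and -0.37 without KO replicate 3. Herc6 overlapped as well, at 12.4 and 11.5 CPM against 7.63, 11.4 and 11.9 CPM.

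The IFIT proteins bind viral RNA that lacks the marks of host RNA. Their genes form a cluster on chromosome 19 (Ifit2 34550694 to 34576419, Ifit1 34640871 to 34650009, GRCm38). Ifit1 was at 3.27 and 0.881 CPM in WT and 1.57, 1.42 and 1.58 CPM in KO (log2 fold change -0.43, SE 0.60), so that the 3 KO libraries lay between the WT ones. Without WT replicate 1 the sign turned, at 0.85. Ifit2, at 11.2 and 17.1 CPM and 17.1, 5.54 and 9.77 CPM, had its high values in other libraries, namely WT replicate 2 and KO replicate 1. These neighbours thus did not share the order of the libraries.

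Oligoadenylate synthetases make the messenger that switches on RNase L. Oas2 had the second lowest p of all members (0.156) and stood at 15.5 and 6.17 CPM in WT and 11.0, 25.5 and 18.0 CPM in KO, with a KO mean of 18.2 ± 7.23 (SD, n = 3). WT replicate 1 lay within the KO range and WT replicate 2 below it. Its log2 fold change was 0.78 (SE 0.51), and 1.65 without WT replicate 1 or 0.32 without WT replicate 2. Oas3, beside it on chromosome 5, was at 17.3 and 7.44 CPM against 13.4, 11.4 and 18.2 CPM (log2 fold change 0.26, SE 0.47) and changed sign, to -0.16, without WT replicate 2. Oas1a, whose count is uncertain, was nearly flat at 9.29 and 12.6 CPM and 8.89, 9.49 and 12.9 CPM. Oasl2, a catalytically active relative, was at 3.77 and 1.67 CPM and 2.52, 3.80 and 2.51 CPM. In this family 3 of 4 tested genes had a positive value and 0 passed.

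Effectors that act on viral RNA or proteins made up the broadest group, with 13 of 16 tested, 8 positive and 5 negative values and a median log2 fold change of 0.07. Rsad2 (chromosome 12, 26442746 to 26456452, minus strand) had 158 and 23 reads in WT and 28, 17 and 88 in KO, or 11.5 and 2.25 CPM against 2.20, 2.69 and 5.81 CPM. WT replicate 1 was high, KO replicate 3 intermediate and the other libraries alike at 2.20 to 2.69 CPM. The log2 fold change of -0.90 (SE 0.68), the lowest of the members, became 0.76 without WT replicate 1. Cmpk2, the gene of a mitochondrial nucleotide kinase that neighbours Rsad2 and is read away from it, did not follow it, at 14.3 and 13.6 CPM in WT and 19.7, 10.9 and 12.0 CPM in KO.

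Membrane effectors were abundant and uneven. Ifitm3 (chromosome 7, 141009586 to 141010770, minus strand) stood at 96.4 and 209 CPM in WT and 229, 141 and 81.4 CPM in KO. WT replicate 2 and KO replicate 1 were high and WT replicate 1 and KO replicate 3 low, so that the group means were close (log2 fold change 0.03, SE 0.46), and the sign turned in 6 alternatives. Bst2 was at 28.3 and 51.1 CPM against 36.0, 76.7 and 32.5 CPM, with KO replicate 2 highest (log2 fold change 0.17, SE 0.46, and -0.34 without that library). Eif2ak2, the kinase PKR that halts translation on double-stranded RNA, ranged only from 37.9 to 61.8 CPM, and Adar, which edits such RNA, from 90.7 to 144.9 CPM. Both overlapped between the genotypes.

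The genotypes overlapped for the remaining effectors too. Samd9l was at 346 and 138 CPM in WT and 171, 202 and 266 CPM in KO, where the KO libraries lay between the WT ones. Trim30a, a brake on inflammatory signalling, was at 68.7 and 31.7 CPM and 25.4, 22.5 and 57.1 CPM (log2 fold change -0.48, SE 0.46), high in WT replicate 1 and KO replicate 3 alone. Rtp4, a receptor chaperone, went from 0.979 to 4.28 CPM within WT and from 0.865 to 4.16 CPM within KO. Zbp1, a sensor that triggers necroptosis, was at 10.4 and 15.6 CPM in WT and 11.2, 25.6 and 6.80 CPM in KO. Xaf1, an apoptosis factor, was at 3.34 and 1.37 CPM and 1.34, 6.17 and 2.24 CPM, and both were highest in KO replicate 2. Ifi35 was at 25.5 and 33.0 CPM in WT and 29.6, 45.7 and 25.8 CPM in KO.

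STAT2 and IRF9 carry the signal to the promoters, and 0 of the 3 transcription factors passed. Stat2 (chromosome 10, 128270559 to 128292849, plus strand) stood at 80.2 and 69.1 CPM in WT and 79.5, 114 and 70.2 CPM in KO, a KO mean of 87.9 ± 23.0 (SD, n = 3). KO replicate 2 was high and the others lay together (log2 fold change 0.26, SE 0.33, and 0.03 without KO replicate 2). Irf9 was at 42.2 and 23.0 CPM against 25.4, 43.7 and 34.4 CPM (log2 fold change 0.08, SE 0.39), a difference that turned to -0.23 without WT replicate 2. Irf7, the factor that amplifies interferon synthesis, was at 9.51 and 18.1 CPM against 10.2, 15.3 and 8.12 CPM (log2 fold change -0.26, SE 0.46), with WT replicate 2 and KO replicate 2 high, and its log2 fold change was 0.31 without WT replicate 2.

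The RNA sensors had negative values in 3 of 3, with a median of -0.15, and 0 passed. Ddx58, which encodes RIG-I, was the most even member, at 59.7 and 42.7 CPM in WT and 42.3, 45.2 and 52.3 CPM in KO, a 1.41-fold range over the deep libraries. Dhx58, which encodes their regulator LGP2, was at 12.0 and 19.7 CPM and 16.4, 16.3 and 11.3 CPM. Parp9, Parp14 and Dtx3l are neighbours on chromosome 16, and PARP9 and DTX3L form an ADP-ribosylating and ubiquitinating pair. Parp14 stood at 89.3 and 24.6 CPM in WT and 27.9, 35.6 and 67.3 CPM in KO, Dtx3l at 59.8 and 24.8 CPM and 25.6, 19.3 and 51.7 CPM (log2 fold change -0.36, SE 0.48), and Parp9 at 44.0 and 25.8 CPM and 26.4, 30.4 and 37.4 CPM. In each of the 3 WT replicate 1 was the highest library and KO replicate 3 the next. Parp9 and Dtx3l overlap on opposite strands, and the counts used here take strand into account.

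Interferon-inducible GTPases attack the vacuoles of intracellular pathogens. Gbp2 (chromosome 3, 142620602 to 142638008, plus strand) was at 11.1 and 3.33 CPM in WT and 2.83, 5.38 and 8.45 CPM in KO (log2 fold change -0.34, SE 0.61, and 0.83 without WT replicate 1). Gbp7 followed at 24.1 and 7.34 CPM and 7.55, 11.6 and 19.9 CPM, and Gbp3 at 3.19 and 1.37 CPM and 0.944, 1.11 and 3.23 CPM. For these 3 neighbours, whose promoters all hold the response element core, WT replicate 1 and KO replicate 3 were the 2 highest libraries. Of the 6 GTPases 5 were tested, with 1 positive and 4 negative values, and 0 passed. Of the immunity-related GTPases, Irgm1 was at 37.5 and 24.2 CPM and 22.6, 26.1 and 33.0 CPM. Igtp was at 12.4 and 24.3 CPM and 23.8, 16.4 and 14.2 CPM and had the reverse order, highest in WT replicate 2 and KO replicate 1.

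Immunoproteasome and peptide transporter genes supply MHC class I with peptides, and 0 of 3 passed, with log2 fold changes from -0.28 to -0.17. Psmb8 (chromosome 17, 34197721 to 34201454, plus strand) stood at 52.8 and 106 CPM in WT and 74.2, 83.0 and 46.2 CPM in KO, a KO mean of 67.8 ± 19.2 (SD, n = 3). The WT libraries bracketed the KO ones except KO replicate 3 (log2 fold change -0.24, SE 0.39, and 0.25 without WT replicate 2). Psmb9, another catalytic subunit of the immunoproteasome, was at 15.8 and 53.2 CPM and 35.7, 32.4 and 16.4 CPM, and Tap1, a subunit of the peptide transporter, at 37.0 and 58.9 CPM and 50.6, 59.3 and 32.3 CPM. Tap1 and Psmb9 are read away from each other from starts 226 bases apart, so their promoter windows share 275 of 300 bases. Neither window holds a match to the response element core or to TTCNNNGAA. In both genes WT replicate 1 and KO replicate 3 were the 2 lowest libraries.

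The levels of the interferon-stimulated genes varied between libraries. Over the 5 deep libraries of both genotypes the highest level was a median of 2.45 times the lowest (1.41 to 6.43 over the 39 tested genes), and 24 of 39 (61.5%) spanned at least 2-fold, against 46.9% of all genes. The 2 highest libraries differed between members. In 18 of 39 they were WT replicate 1 and KO replicate 3 (46.2%, against 29.3% of all genes), namely Usp18, Herc6, Ifit1, Oas3, Rsad2, Eif2ak2, Adar, Samd9l, Rtp4, Trim30a, Ddx58, Parp9, Parp14, Dtx3l, Gbp2, Gbp3, Gbp7 and Irgm1. In 5 they were WT replicate 2 and KO replicate 1 (12.8%, against 19.4%), namely Ifit2, Ifitm3, Dhx58, Igtp and Psmb9. In 6 they were WT replicate 2 and KO replicate 2 (15.4%, against 15.1%), namely Bst2, Zbp1, Ifi35, Irf7, Tap1 and Psmb8. In 5 they were WT replicate 1 and KO replicate 2 (12.8%, against 7.45%), namely Isg15, Oasl2, Xaf1, Irf9 and Stat2. The last 5, Oas1a, Oas2, Cmpk2, Ifi27l2a and Ifih1, each had another pair. This description was chosen after the values were seen, and it carries no test.

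**Figure D3:**
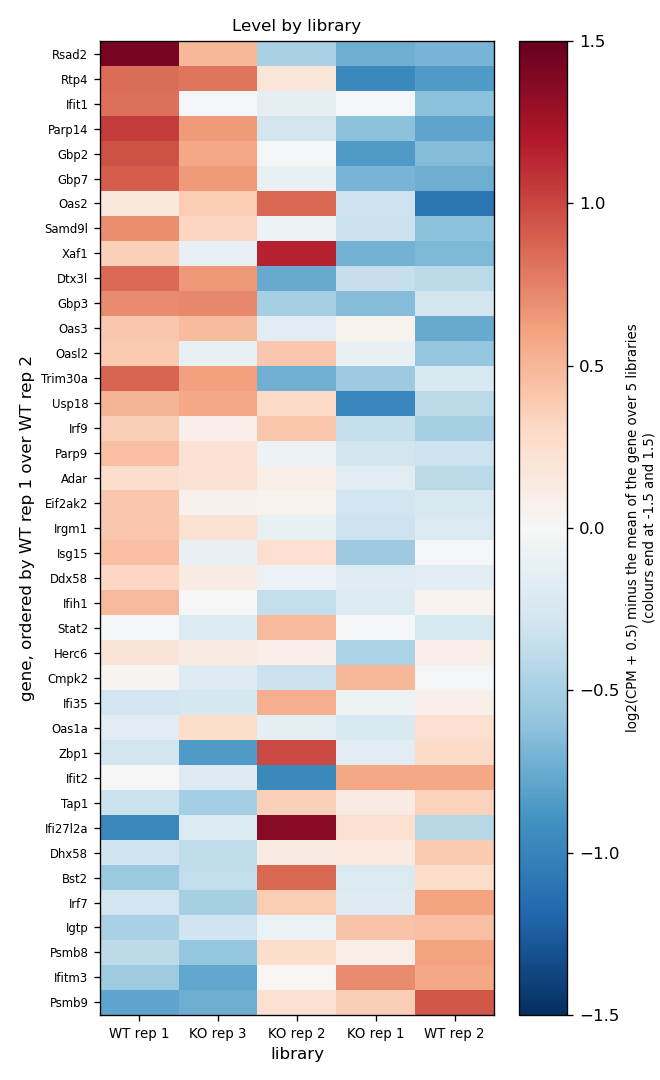
Level of the 39 tested genes (rows, ordered by WT replicate 1 over WT replicate 2) in 5 deep libraries (columns), as log2(CPM + 0.5) minus the mean of each gene, with colours ending at -1.5 and 1.5. Genes at the top, such as Rsad2 and Parp14, are high in WT replicate 1 and KO replicate 3, and genes at the bottom, such as Psmb9 and Ifitm3, are low there.

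The difference between the deep WT libraries was set beside that between KO replicates 3 and 1. Of 39 tested genes, 20 stood at least 1.5-fold higher in WT replicate 1 than in WT replicate 2 (51.3%, against 25.1% of all genes), and in 19 of these 20 KO replicate 3 also lay above KO replicate 1. Those KO libraries were level in Oasl2, the exception, and also in Ifit1, which is counted among the 19 at 1.58 against 1.57 CPM. Another 11 genes stood at least 1.5-fold higher in WT replicate 2 (28.2%, against 24% of all genes), and in 11 of 11 KO replicate 3 lay below KO replicate 1. Over all genes the same agreement was 94.1% and 95.1%, so it is not particular to the members. The largest WT difference among the tested members was that of Rsad2, 5.09-fold, with 2.64-fold between KO replicates 3 and 1. Rtp4 had 4.37-fold and 4.80-fold, Ifit1 3.71-fold and 1.01-fold, and Parp14 3.63-fold and 2.42-fold. In the other direction Psmb9 had 3.38-fold and 2.18-fold, and Ifitm3 2.16-fold and 2.81-fold.

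**Figure D4:**
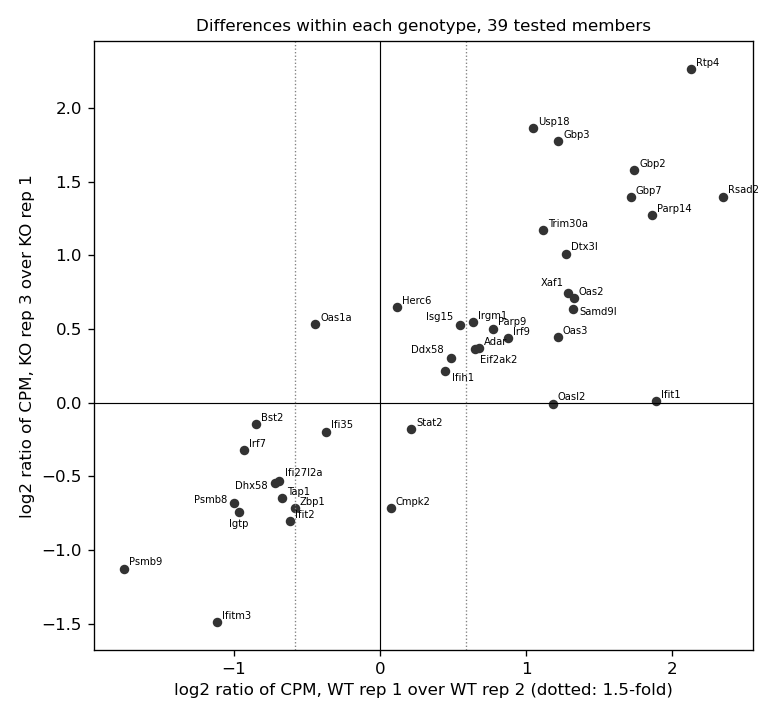
Log2 ratio of CPM between WT replicates 1 and 2 (x axis) and between KO replicates 3 and 1 (y axis) for the 39 tested genes, with dotted lines at 1.5-fold. Points right of the upper dotted line lie above 0 on the y axis except Oasl2, with Ifit1 close to 0, and all points left of the lower line lie below 0.

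Markers of cell types differed between the same libraries. The 15 monocyte and macrophage genes summed to 13229 and 5944 CPM in WT and to 8252, 4989 and 12973 CPM in KO. In 5 of 15 (Csf1r, Cx3cr1, Adgre1, Cd14 and Lyz2) WT replicate 1 and KO replicate 3 were the 2 highest libraries. That is 33.3%, near the 29.3% of all genes. In another 4 they were WT replicate 2 and KO replicate 2, and in 3 the deep WT libraries. Csf1r, the receptor for macrophage colony-stimulating factor, was at 485 and 133 CPM in WT and 158, 169 and 442 CPM in KO. The 14 neutrophil granule genes summed to 47882 and 103769 CPM in WT and 92065, 42419 and 37658 CPM in KO. Of these, 11 of 14 had WT replicate 2 and KO replicate 1 on top (78.6%, against 19.4% of all genes). No gene of these lists was at 0 reads throughout. The 14 mast cell and basophil genes summed to 6239 and 5228 CPM in WT and 3412, 10290 and 4538 CPM in KO. The sum was highest in KO replicate 2, as were Cpa3, Mcpt8, Tpsb2, Hdc and Gata2. The rest of that list were highest in other libraries. In bulk RNA, fewer cells of a type and less RNA per cell cannot be told apart.

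**Figure D5:**
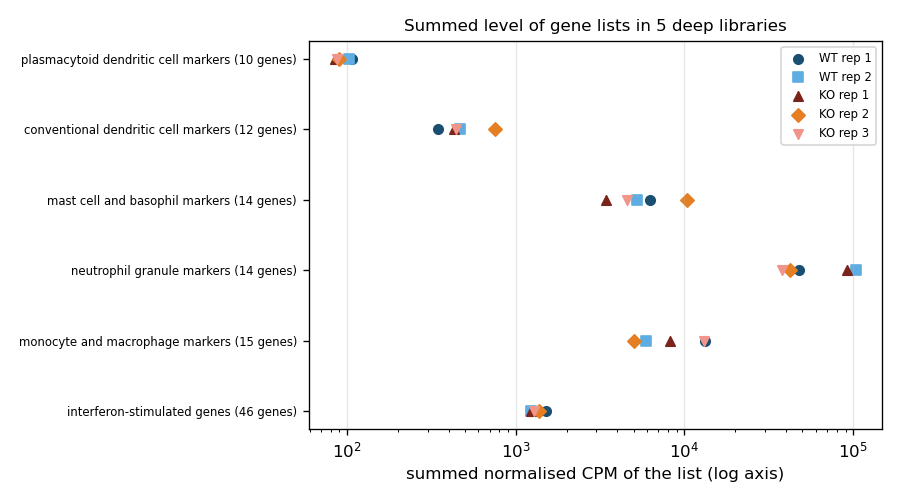
Summed normalised CPM (log axis) of the 46 interferon-stimulated genes and of marker lists of 5 cell types, with 1 symbol per deep library. The interferon-stimulated genes sum to 1227 to 1512 CPM, while the neutrophil granule genes are highest in WT replicate 2 and KO replicate 1 and the monocyte genes in WT replicate 1 and KO replicate 3.

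Other features ran with the same libraries. WT replicate 2 held 5910 reads of Xist, the RNA of the inactive X chromosome, KO replicate 1 held 12107, and the others at most 1. Eif2s3y, a gene of the Y chromosome, had 0 reads in those 2 and 865 to 1144 in the other deep libraries. Mitochondrial genes took 15.7% of gene reads in KO replicate 2 and 1.26% to 1.84% in the other deep libraries. The part of cell types, sex and mitochondrial reads in the levels of the interferon-stimulated genes was not tested. Plasmacytoid dendritic cells are the main interferon producers of blood, and their markers were read unevenly. Siglech held 1 read in all libraries together and Klk1 0. In the deep libraries Tcf4 was at 13.1 to 21.3 CPM and Runx2 at 24.7 to 44.3 CPM. Only 4 of 10 of these markers were tested, and the list summed to 103.3 to 106.4 CPM in WT and 84.6 to 90.2 CPM in KO. That sum came almost wholly from the tested genes Tcf4, Runx2, Ptprcap and Bcl11a, and hardly from Siglech or Klk1. Of the 4, Bcl11a alone had all KO libraries below both deep WT libraries, as 3.87% of all genes did. Bcl11a, a factor that other progenitors express too, had the lowest p of that list (unadjusted p = 0.0887, log2 fold change -0.80, SE 0.43). The 12 conventional dendritic cell genes had 8 tested members with 8 positive values and a median of 0.61, and 0 passed. KO replicate 2 was the highest library in each of the 8. The list summed to 346.2 and 468.7 CPM in WT and 429, 753.5 and 443.6 CPM in KO. KO replicates 1 and 3 thus lay within the WT range. Itgax had the lowest p (86.1 and 44.5 CPM in WT, 87.7, 161 and 105 CPM in KO, log2 fold change 0.97, SE 0.46, edgeR unadjusted p = 0.0581). Its log2 fold change was 1.60 without WT replicate 1, 0.73 without WT replicate 2 and 0.68 without KO replicate 2.

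Interferon transcripts themselves were at or next to 0. Of 10 interferon genes, 9, among them Ifnb1, Ifng and 4 alpha interferons, had 0 reads in every library, and Ifnk had 1 read in KO replicate 1. A count of 0 allows up to 0.475 CPM in the shallowest deep library, by counting error. The receptor chains and signal carriers were read well, with 16 of 16 tested, 7 positive and 9 negative values, a median log2 fold change of -0.01 and 0 past the threshold. Ifnar1, a chain of the type I receptor, was at 240.2 and 87.9 CPM in WT and 104, 145 and 198 CPM in KO, highest in WT replicate 1 and KO replicate 3 (log2 fold change 0.01, SE 0.46). Its partner chain Ifnar2 was flat at 78.0 and 78.1 CPM and 79.9, 76.9 and 71.1 CPM (log2 fold change -0.01, SE 0.30). Irf1, a transcription factor that interferon gamma induces, stood at 38.2 and 60.9 CPM and 53.4, 46.0 and 37.9 CPM (log2 fold change -0.13, SE 0.34). Of the type III receptor chain Ifnlr1, 27.6 and 9.99 CPM were read in WT and 28.5, 19.1 and 27.1 CPM in KO (log2 fold change 0.46, SE 0.47), the lowest p of this list (0.351). Without WT replicate 2 the values of these 4 genes turned sign, at -0.31 for Ifnar1, 0.03 for Ifnar2, 0.20 for Irf1 and -0.02 for Ifnlr1.

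The brakes and the sensors of the pathway had 0 genes past the threshold as well. Of 8 negative regulators 5 had positive values, with a median of 0.04 and 0 past the threshold, and Pias3 had the lowest p (0.486, log2 fold change 0.28, SE 0.39, and 0.09 without KO replicate 2 or 0.50 without WT replicate 1). Socs1, the inducible inhibitor of JAK kinases, ranged from 14.4 to 61.2 CPM within KO alone. Of 16 sensors and adaptors 15 were tested, with a median of 0.05 and 0 past the threshold. The endosomal sensor Tlr3 had the lowest p (0.150), at 3.34 and 0.588 CPM in WT and 2.67, 3.64 and 6.20 CPM in KO. Its log2 fold change was 1.08 (SE 0.70), and 2.87 without WT replicate 1, 0.38 without WT replicate 2 or 0.68 without KO replicate 3. Among 54 other interferon-inducible genes 48 were tested, 20 positive and 28 negative, with a median of -0.03 and 0 past the threshold. Ms4a4c, a membrane protein gene of the lowest p there (0.119), had 34 and 12 reads in WT and 9, 10 and 5 in KO. Its log2 fold change was -1.15 (SE 0.68), and -0.46 without WT replicate 1, -0.69 without KO replicate 3 or -1.80 without KO replicate 2.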

How the data were processed

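Stranded polyadenylated RNA libraries (TruSeq, per the labels) were aligned with STAR 2.5.1b to GRCm38, and DESeq2 is also named, per the submitters' processing notes. The deposited values are raw read counts per gene, unstranded and for each strand. The reverse-strand column was used, which held 95.6% to 97.5% of the stranded gene reads. Both runs of WT replicate 3 were summed. Rows that name no gene, 25.6% to 47.8% of the reads in each library's table, were left out. Of 46983 gene identifiers 46488 matched the annotation (GENCODE M21), including all 46 members. The sources used here do not give the authors' annotation release. Members and lists were chosen with earlier results of these data known.

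KO was compared with WT over all 6 libraries by edgeR 4.0.16 (quasi-likelihood test, TMM scaling, filterByExpr, no block), with Benjamini-Hochberg adjustment over 12292 genes and a threshold of 0.05. DESeq2 1.42.0, limma-voom (limma 3.58.1), other scalings, no filter, a replicate block, unstranded counts, 1 run of WT replicate 3 and leaving out each library were alternatives. CPM used effective library sizes. The code, tested on simulated data of 12292 genes for this comparison, called 16%, 82%, 98% and 94% of genes changed by 1, 2, 3 and 4 on the log2 scale. The changed genes were drawn from better-read genes only, so these rates do not cover scarce members such as Ifit1. Genes named with a log2 fold change, where tested, were 14 set members (Ifit3 and Mx1 were not tested), the 4 tested members of lowest p in each direction, Psip1, Irf1, Ifnar1 and Ifnar2, and the gene of lowest p in each list; 1 further gene named by this rule is not reported here, and other genes are given as levels. Sequences are from RefSeq windows.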

Additional observations from a re-analysis of the deposited data

How the results depend on the processing

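Under 16 other settings 0 interferon-stimulated genes passed the threshold, and their lowest adjusted p was 0.71, without WT replicate 1. The genes called over the whole table, 0 by the main test, numbered 2 with library size only, 9 with no filter on low counts, 1 by DESeq2, 12 by DESeq2 without WT replicate 3, and 0 to 5 when 1 library was left out. Between libraries of the same replicate number, the correlations of deviations from the group mean were -0.287, -0.032 and -0.146. The WT mean includes the shallow WT replicate 3, so these values cannot decide whether replicate numbers pair the libraries. The replicate block called 13 genes, 2 of them on the pathway and marker lists (Cd247 and Mcpt1). Leaving out 1 library called 0 to 1 genes of those lists. For Psip1 the log2 fold change was -2.28 with no filter (adjusted p = 0.00403), -2.33 with the replicate block (0.048) and -2.32 by DESeq2 without WT replicate 3 (7.86e-08), all past the threshold. Psip1 did not pass under the other settings. Its edgeR adjusted p was 0.0502 with library size only, 0.247 without WT replicate 3, 0.212 without KO replicate 1 and 0.319 without KO replicate 2. Over all settings its log2 fold change stayed between -2.45 and -2.07. The median of the members ran from -0.16 to 0.21 when 1 library was left out. The median of all genes was -0.318 by DESeq2, which was run on 22237 genes with no filter on low counts. By edgeR with no filter, also on 22237 genes, it was 0.0788. Of 496 values for 31 named genes, 39 turned sign. The replicate block changed no other call of a named gene and turned 1 sign, that of Ifnar2 (0.04), which was also 0.02 with RLE, 0.03 with no filter and 0.03 by DESeq2. Ifitm3 was -0.03 with library size only, -0.04 by voom and -0.03 by DESeq2 without WT replicate 3, where Ifnar1 was -0.16, after -0.04 with library size only. With WT replicate 3 and KO replicate 2 both left out, a choice made after seeing the data, Irf9 was -0.13, Bst2 -0.22 and Ifnar1 -0.12. Leaving out 1 library gave ranges of -1.03 to 0.85 for Ifit1, -1.55 to 0.76 for Rsad2, -0.34 to 0.55 for Bst2, -0.40 to 0.58 for Ifitm3, -0.89 to 0.83 for Gbp2, -1.01 to 0.21 for Trim30a, -0.87 to 0.42 for Dtx3l, -0.54 to 0.31 for Irf7, -0.23 to 0.61 for Irf9, -0.55 to 0.25 for Psmb8 and -0.16 to 1.05 for Oas3, and -0.38 to 0.68 for Usp18, which was -0.39 with the replicate block. They were -0.36 to 0.20 for Irf1, -0.31 to 0.90 for Ifnar1, -0.04 to 0.07 for Ifnar2, -0.02 to 1.42 for Ifnlr1, -2.34 to 0.24 for Nkg7 and -2.27 to 0.63 for Hbb-bt. The cause of these moves was not tested beyond the number of genes and libraries that each setting holds. Depth limits the WT group to 2 informative libraries, and in simulated data 16% of better-read genes changed by 1 on the log2 scale were called.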

Other observations

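Some interferon-inducible genes outside the 46 showed the same contrast between libraries, and they were chosen after their values were seen. Cxcl10, a chemokine that interferon gamma induces, stood at 30.6 and 3.82 CPM in WT and 3.78, 3.96 and 24.4 CPM in KO, with WT replicate 1 and KO replicate 3 high and the other deep libraries level. Rnf213, a large ubiquitin ligase, was at 194 and 71.2 CPM and 77.1, 69.0 and 190.2 CPM. Among the endosomal receptors that read nucleic acid in phagocytes, Tlr7 was at 66.0 and 18.1 CPM in WT and 34.7, 23.1 and 68.3 CPM in KO. Tlr8 was at 31.6 and 8.32 CPM and 18.1, 13.8 and 37.2 CPM, and Tlr9 at 5.51 and 0.685 CPM and 0.944, 0.949 and 5.15 CPM. Each had its 2 highest values in those same libraries.

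Other inducible genes had the reverse order. Ifitm2, a close relative of Ifitm3 that lies near it, was at 100.1 and 244 CPM in WT and 210.1, 144 and 111 CPM in KO, and Tap2, the partner of Tap1, at 85.0 and 197 CPM and 152, 135 and 90.0 CPM. Both were lowest in WT replicate 1 and KO replicate 3. B2m, the light chain of MHC class I, followed the first order at 1124 and 649 CPM and 528, 649.6 and 973 CPM, whereas the heavy chain gene H2-D1 was at 852 and 1346 CPM and 1074, 885 and 1046 CPM.

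Lists of other cell types had 0 genes past edgeR's adjusted threshold, with 2 of 15 monocyte and macrophage genes and 3 of 14 mast cell genes at an unadjusted p under 0.05, where 1.45% of all genes were. The genes of lowest p were C1qa among monocyte and macrophage genes (log2 fold change -2.35, SE 0.67), Retnlg among neutrophil granule genes (log2 fold change 1.21, SE 0.79), Mcpt4 among mast cell genes (log2 fold change -2.28, SE 0.53), Nkg7 among lymphocyte genes (log2 fold change -1.30, SE 0.82) and Hbb-bt among erythroid genes (log2 fold change -1.14, SE 0.92). The medians of these lists were -0.21, -0.37, -0.23, -1.14 and -0.63 over 15, 14, 14, 4 and 9 tested genes. Nkg7 and Hbb-bt turned sign without WT replicate 2, at 0.24 and 0.63, and there C1qa was -0.96, Retnlg 2.53 and Mcpt4 -1.21. Retnlg was 0.27 without KO replicate 1 and 0.60 without WT replicate 1. Mcpt4 passed the threshold without WT replicate 1, at -2.76 (edgeR adjusted p = 0.00749, against 0.894 in the fit of 6 libraries and 1 without WT replicate 2).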
